A study of Mus musculus with 10 samples.

Results

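The 10 genes that carry the classical MHC pathways were followed in testes of 21-day-old mice with and without MOV10, an RNA helicase. They were chosen by name for their role in antigen presentation, from 55421 genes in the count files. The rule itself used no measured value, but earlier results of these data were known when the 10 genes were chosen. Of these, 6 belong to the class I pathway (H2-K1, H2-D1, B2m, Tap1, Tap2 and Nlrc5) and 4 to the class II pathway (H2-Aa, H2-Ab1, H2-Eb1 and Cd74). RNA-seq was done on 3 Mov10-/- libraries (replicates 2, 3 and 4) and 3 wild type Mov10+/+ libraries (replicates 1, 2 and 3), each made from the polyadenylated RNA of 1 pair of whole testes at postnatal day 21. The Mov10-/- mice were global knockouts: several exons coding for the first helicase domain had been removed by Actb-Cre, a recombinase active in all tissues, and the mice were on a mixed strain background. The series also holds 4 MOV10 CLIP-seq libraries from testis (replicates 1, 2, 3 and 5), in which RNA bound to the protein was sequenced. These libraries carry no genotype comparison.

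Class I molecules are made by nearly every nucleated cell. A heavy chain such as H2-K1 or H2-D1 pairs with B2m and holds a peptide that the proteasome has cut and that the Tap1-Tap2 transporter has carried into the endoplasmic reticulum. NLRC5 is the transactivator that drives these genes. Class II molecules are made mainly by macrophages, dendritic cells and B cells, where the alpha chain H2-Aa pairs with the beta chain H2-Ab1, H2-Eb1 codes for a second beta chain, and the invariant chain Cd74 guards the groove on the way to the endosome. CIITA drives the class II genes. In the testis, germ cells are known for low class I levels, and class II is found mainly on testicular macrophages.

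The class II genes were lower on average in Mov10-/- testes and the class I genes H2-D1, B2m, Tap1 and Tap2 were higher on average, but no gene of the 10 passed the adjusted threshold. H2-D1 was 1.598 times and B2m 1.30 times the wild type level, with every Mov10-/- library above every wild type library. H2-Eb1 was 0.316 times the wild type level, with every Mov10-/- library below. H2-K1, the other main heavy chain, differed by less than the spread between replicates. The median log2 fold change (Mov10-/- over wild type) was 0.50 over the 6 class I genes and -0.79 over the 4 class II genes, beside 0.03 over all 20240 genes tested.

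Levels are given in CPM, the reads of a gene scaled to the TMM-adjusted size of its library. Genes with over 1 CPM before that adjustment in at least 3 of the 6 RNA-seq libraries were tested, and all 10 had it. A call needed a fold change over 2 and a p below 0.05 in edgeR's quasi-likelihood test after Benjamini-Hochberg adjustment. By that rule 0 of the 10 genes were called, beside 0 of 20240 genes called higher (0.0%) and 1 called lower (0.00494%), which was Mov10 itself. At an unadjusted p below 0.05, 3 of the 10 genes were higher (H2-D1, B2m and Tap2) beside 5.58% of all genes, and 1 was lower (H2-Eb1) beside 11.9%. Every Mov10-/- library lay above every wild type library for 2 of the 10 (H2-D1 and B2m), beside 11.9% of all genes, and below for 1 (H2-Eb1), beside 14.1%. The other tests also called 0 of the 10, beside 0.346% of all genes called higher and 5.09% lower by edgeR's exact test, 0.41% and 5.45% by its likelihood ratio test, 0.257% and 4.98% by DESeq2, and 0.00494% and 0.00494% by limma voom.

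Mov10 served as the check of the labels. Its level was 29.2, 26.7 and 26.8 CPM in Mov10-/- replicates 2, 3 and 4 and 114, 96.8 and 120 in wild type replicates 1, 2 and 3, a log2 fold change of -1.999 (SE 0.12, edgeR quasi-likelihood adjusted p = 0.00552). The groups did not overlap. Reads on genes numbered 5083407 to 9230540 per RNA-seq library, and 1 count equalled 0.107 to 0.206 CPM. The shallowest library was Mov10-/- replicate 3, where 57.2% of reads did not align. Marker lists of other cell types moved with genotype. Summed Sertoli cell markers were 876 to 1021 CPM in Mov10-/- and 710 to 819 CPM in wild type, and spermatid markers were 111 to 260 CPM and 255 to 804 CPM, with a slight overlap. The part of these shifts in the results on the MHC genes was not tested. In bulk RNA, fewer cells of a type and less RNA per cell cannot be told apart.

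The start regions of the genes that lead the results are shown first because the class I genes and the class II genes are known to share regulatory elements there. Known elements of class I and B2m promoters are a kappa B site, an interferon response element and the X and Y boxes, and class II promoters carry the X and Y boxes. RefSeq promoters of GRCm38.p6 (250 bases before a start) were matched by symbol for 6 of the 10 genes. They were searched on both strands for 5 short motifs, chosen after the sequences had been seen: kappa B (GGNNTTNCC, in 13.5% of 32851 promoters of the same length), interferon response (TTTCNNTT, 21.3%), X1 box (AGNNACNGA, 14.7%), X2 box (TGACG, 17.8%) and Y box (CTGATTGG, 3.83%). Capitals mark a match on either strand, and each sequence runs 5′ to 3′ on the strand of its gene.

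H2-K1, chr17:34000380-34000477, minus strand: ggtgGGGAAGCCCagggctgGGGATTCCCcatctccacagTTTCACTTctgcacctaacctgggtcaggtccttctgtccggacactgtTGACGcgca
H2-D1, chr17:35262904-35263052, plus strand: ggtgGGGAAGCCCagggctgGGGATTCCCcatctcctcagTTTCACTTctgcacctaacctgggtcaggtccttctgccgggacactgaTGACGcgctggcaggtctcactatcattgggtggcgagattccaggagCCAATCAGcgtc
B2m, chr2:122147546-122147617, plus strand: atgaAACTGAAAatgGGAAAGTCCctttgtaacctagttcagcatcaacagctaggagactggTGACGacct
Tap1, chr17:34187330-34187478, plus strand: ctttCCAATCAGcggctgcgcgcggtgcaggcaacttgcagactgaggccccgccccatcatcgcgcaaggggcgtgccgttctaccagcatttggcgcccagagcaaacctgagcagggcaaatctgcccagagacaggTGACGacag
H2-Aa, chr17:34287863-34288040, minus strand: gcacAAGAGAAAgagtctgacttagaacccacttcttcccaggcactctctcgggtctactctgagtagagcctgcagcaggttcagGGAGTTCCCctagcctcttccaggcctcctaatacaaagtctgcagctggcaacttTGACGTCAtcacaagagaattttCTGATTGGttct
H2-Eb1, chr17:34305771-34305836, plus strand: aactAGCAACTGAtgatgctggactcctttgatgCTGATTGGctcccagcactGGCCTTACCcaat

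The H2-K1 and H2-D1 stretches were alike at 93 of their first 98 bases, and both held a pair of kappa B matches, an interferon response match and an X2 match in the same order. B2m held 1 match to each of those 3 motifs. H2-Aa and H2-Eb1 each held a Y box match and a kappa B match, and the X2 match of H2-Aa lay on both strands, with 2 overlapping copies. H2-Eb1 was the only one of the 6 with an X1 match in this window. Tap1 had an X2 and a Y box match, and its start lay 226 bases from that of Psmb9, a proteasome subunit read from the opposite strand. A match is a description of letters and not a measured site, and no match says only that the letters are not in this window.

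**Figure D1:**
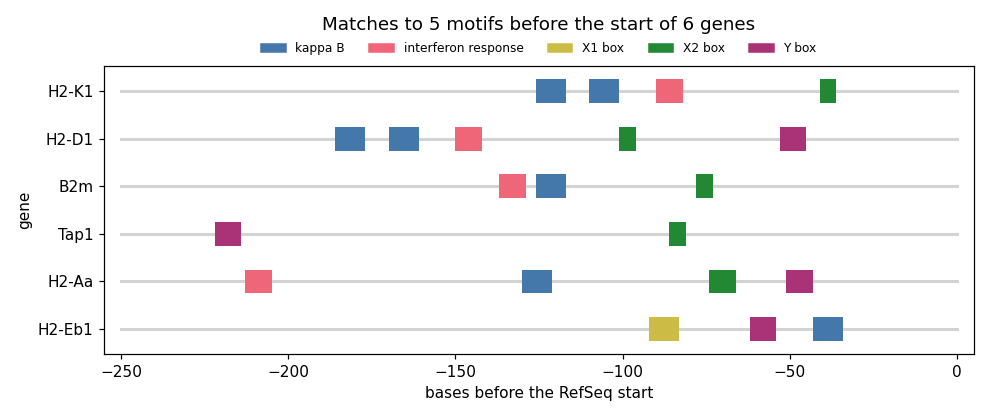
Position of matches to 5 motifs on either strand, in bases before the RefSeq start (x axis), for the 6 genes with a promoter sequence (y axis). H2-K1 and H2-D1 carry the same run of 2 kappa B matches, an interferon response match and an X2 match, and the Y box colour appears in H2-D1, Tap1, H2-Aa and H2-Eb1.

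H2-D1 and H2-K1 code for class I heavy chains. H2-D1 (ENSMUSG00000073411, chromosome 17, 35262730 to 35267499) was at 87.6, 95.6 and 78.9 CPM in Mov10-/- replicates 2, 3 and 4 and at 63.8, 46.6 and 53.3 CPM in wild type replicates 1, 2 and 3. The lowest Mov10-/- library lay above the highest wild type library. The log2 fold change was 0.68 (SE 0.14, 95% interval 0.34 to 1.01), with an unadjusted p of 0.00164 and an edgeR quasi-likelihood adjusted p of 0.150. The adjusted p was 0.00459 by edgeR's exact test, 0.00384 by its likelihood ratio test and 0.00280 by DESeq2, while the fold change stayed under 2. Over every alternative it ranged from 0.00280 to 0.414.

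H2-K1 (ENSMUSG00000061232, chromosome 17, 33996017 to 34000347) was at 97.8, 58.0 and 89.5 CPM in Mov10-/- and at 89.9, 89.6 and 92.1 CPM in wild type. The wild type libraries lay within a few CPM of each other, and Mov10-/- replicate 3 stood far below the other Mov10-/- libraries, which lay around the wild type level. The log2 fold change was -0.14 (SE 0.18, 95% interval -0.56 to 0.28, edgeR quasi-likelihood adjusted p = 0.714), and it was 0.049 without Mov10-/- replicate 3. Within a library, the ratio of H2-D1 to H2-K1 was 0.896, 1.65 and 0.881 in Mov10-/- and 0.710, 0.520 and 0.579 in wild type. The groups did not overlap (two-sided exact permutation p = 0.1, the smallest that 3 against 3 can give, and 0.3 after Benjamini-Hochberg adjustment over the 9 ratios computed, which were chosen after the counts had been seen).

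The heavy chain values carry a limit of counting. Of the 50-base stretches in annotated H2-K1 exons and junctions, 9.63% also occurred in another gene, as did 12.8% for H2-D1, mainly in other H2 class I genes. Among 100-base stretches the shares were 0.957% and 3.59%. Reads that align to more than 1 place were left out of the counts and made up 4.07% to 7.56% of the reads of a library. The 2 heavy chains are also highly polymorphic between strains. The H2 haplotype of each animal was not given in the sources used here, for these or any other H2 gene. Its part in the values of the H2 genes was not tested.

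B2m (ENSMUSG00000060802, chromosome 2, 122147686 to 122153083), the light chain that every class I heavy chain needs, was at 48.4, 37.0 and 40.1 CPM in Mov10-/- and at 33.1, 31.4 and 32.2 CPM in wild type. All 3 Mov10-/- libraries lay above the narrow wild type range. The log2 fold change was 0.38 (SE 0.15, 95% interval 0.02 to 0.74), with an unadjusted p of 0.0403 and an edgeR quasi-likelihood adjusted p of 0.261. Unlike the heavy chains, B2m shared no 50-base stretch with another gene.

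The peptide transporter genes were higher on average, with overlapping groups. Tap1 (ENSMUSG00000037321, chromosome 17, 34187553 to 34197225) was at 17.99, 10.7 and 20.4 CPM in Mov10-/- and at 10.01, 8.35 and 13.5 CPM in wild type (log2 fold change 0.62, SE 0.32, edgeR quasi-likelihood adjusted p = 0.362). Tap2 (ENSMUSG00000024339, chromosome 17, 34203527 to 34216321) was at 20.6, 10.5 and 16.9 CPM in Mov10-/- and at 11.4, 6.44 and 9.13 CPM in wild type (log2 fold change 0.83, SE 0.34, unadjusted p = 0.0411, edgeR quasi-likelihood adjusted p = 0.263). In both genes Mov10-/- replicate 3 fell inside the wild type range and the other two Mov10-/- libraries lay above it. The ratio of Tap1 to Tap2 overlapped between the groups (0.873 to 1.20 in Mov10-/- and 0.876 to 1.48 in wild type).

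Nlrc5 (ENSMUSG00000074151, chromosome 8, 94434356 to 94527272), which codes for the class I transactivator, was at 5.46, 3.29 and 6.91 CPM in Mov10-/- and at 6.71, 9.59 and 5.16 CPM in wild type. The groups overlapped, and the log2 fold change of -0.44 (SE 0.38, 95% interval -1.33 to 0.45, edgeR quasi-likelihood adjusted p = 0.587) lay on the other side of 0 from those of H2-D1, B2m, Tap1 and Tap2.

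The 4 class II genes all had negative log2 fold changes, and each had its lowest value in Mov10-/- replicate 3. H2-Eb1 (ENSMUSG00000060586, chromosome 17, 34305867 to 34316674) was at 5.58, 1.03 and 2.47 CPM in Mov10-/- replicates 2, 3 and 4 and at 7.18, 12.9 and 9.56 CPM in wild type replicates 1, 2 and 3. The highest Mov10-/- library lay below the lowest wild type library. The log2 fold change was -1.66 (SE 0.55, 95% interval -2.94 to -0.39), with an unadjusted p of 0.0172 and an edgeR quasi-likelihood adjusted p of 0.194. Over every alternative its adjusted p ranged from 0.0636 to 0.501.

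H2-Aa (ENSMUSG00000036594, chromosome 17, 34282744 to 34287823) was at 13.6, 1.03 and 4.69 CPM in Mov10-/- and at 11.4, 17.4 and 10.5 CPM in wild type. Mov10-/- replicate 2 lay inside the wild type range, and the other two Mov10-/- libraries lay below it. The log2 fold change was -0.99 (SE 0.71, 95% interval -2.63 to 0.65, edgeR quasi-likelihood adjusted p = 0.506). In Mov10-/- replicate 3, H2-Aa and H2-Eb1 rested on 5 reads each, whose exact Poisson 95% interval of 0.334 to 2.40 CPM covers counting error only and lies below the other 5 libraries of H2-Aa.

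H2-Ab1 (ENSMUSG00000073421, chromosome 17, 34257689 to 34269419) was at 18.2, 8.22 and 14.3 CPM in Mov10-/- and at 17.7, 21.8 and 22.4 CPM in wild type (log2 fold change -0.59, SE 0.31, edgeR quasi-likelihood adjusted p = 0.366). Cd74 (ENSMUSG00000024610), the invariant chain, was at 29.0, 8.22 and 12.96 CPM in Mov10-/- and at 19.8, 27.5 and 24.9 CPM in wild type (log2 fold change -0.51, SE 0.43, edgeR quasi-likelihood adjusted p = 0.569). In both genes Mov10-/- replicate 2 lay inside or above the wild type range and replicates 3 and 4 lay below it. The class II median log2 fold change was -1.65 without Mov10-/- replicate 2 and -0.43 without Mov10-/- replicate 3. The unknown H2 haplotypes limit H2-Aa, H2-Ab1 and H2-Eb1 as well, and their part in these values was not tested.

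**Figure D2:**
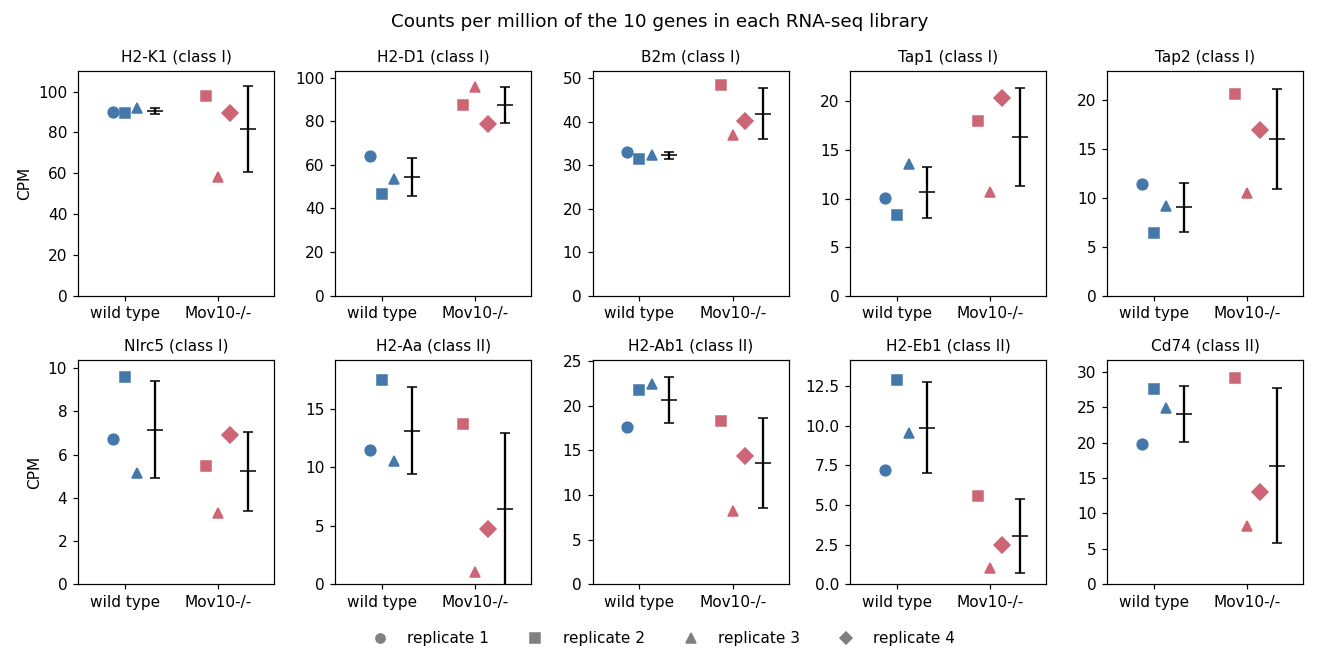
CPM of each of the 10 genes (y axis, from 0) in the 3 wild type (blue) and 3 Mov10-/- (red) RNA-seq libraries, with the marker shape giving the replicate and the black bar the mean ± SD (n = 3, cut at 0 where it would be negative). The groups separate for H2-D1, B2m and H2-Eb1 and overlap for the other 7 genes, and Mov10-/- replicate 3 is the lowest library in each class II gene.

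**Figure D3:**
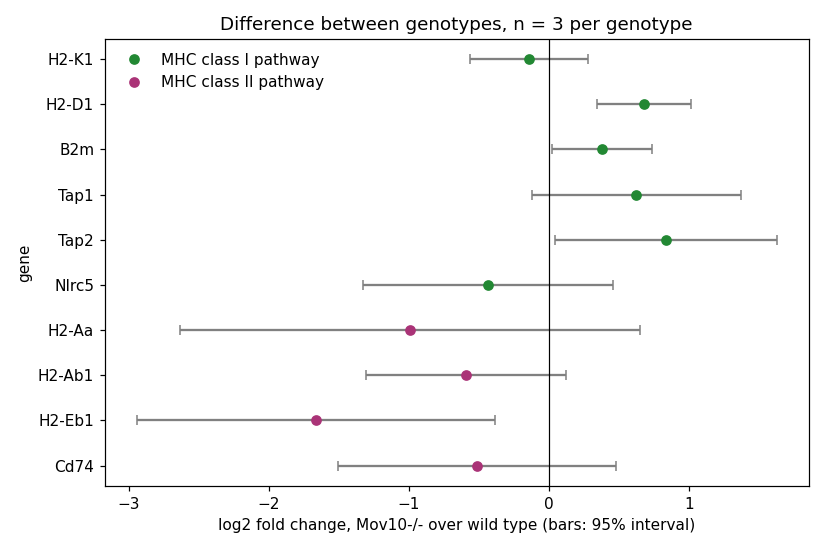
Log2 fold change of Mov10-/- over wild type (x axis) for each gene (y axis), with bars giving the 95% interval from edgeR's quasi-likelihood fit (n = 3 per genotype). The intervals of H2-D1, B2m and Tap2 lie above 0, that of H2-Eb1 lies below 0, and the other 6 include 0.

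Replicates of the class II genes spread more widely in Mov10-/- than in wild type. The coefficient of variation (SD over mean, n = 3) of H2-Aa was 101% in Mov10-/- and 28.5% in wild type, and that of Cd74 was 65.2% and 16.4%. H2-K1 (25.7% and 1.502%) and B2m (14.1% and 2.69%) also varied more in Mov10-/-, while H2-D1 (9.58% and 16.0%) varied less. The median over 20237 genes was 17.2% in Mov10-/- and 17.5% in wild type, so all 4 class II genes lay above it in Mov10-/-. The equality of spreads was not tested.

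Levels of different genes were compared per kilobase of annotated exons. In wild type testis B2m was highest, at 37.5 ± 1.01 CPM per kilobase (SD, n = 3), followed by H2-K1 at 30.8 ± 0.463 and H2-D1 at 21.2 ± 3.38. Cd74 (14.3 ± 2.35), H2-Ab1 (8.03 ± 1.01), H2-Eb1 (5.08 ± 1.47) and H2-Aa (3.45 ± 0.983) came next, then Tap2 (2.38 ± 0.660), Tap1 (1.94 ± 0.483) and Nlrc5 (0.842 ± 0.265). The wild type ranges of neighbours in this order overlapped for H2-Eb1 and H2-Aa, for H2-Aa and Tap2, and for Tap2 and Tap1, and did not overlap for the other pairs of neighbours. In Mov10-/- testis B2m was again highest (48.6 ± 6.84 CPM per kilobase), H2-D1 (33.9 ± 3.24) lay above H2-K1 (27.8 ± 7.15) on average with overlapping ranges, and H2-Aa (1.6996 ± 1.71) and H2-Eb1 (1.56 ± 1.20) lay below Tap2 (4.23 ± 1.35) and Tap1 (2.99 ± 0.921) on average, with overlapping ranges.

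Summed over the 4 class II genes the level was 66.5, 18.5 and 34.4 CPM in Mov10-/- and 56.1, 79.6 and 67.5 CPM in wild type, and the groups overlapped. Summed over the 6 class I genes it was 278, 215 and 253 CPM in Mov10-/- and 215, 192 and 205 CPM in wild type, with the lowest Mov10-/- library about level with the highest wild type library. The ratio of class II to class I within a library was 0.239, 0.0860 and 0.136 in Mov10-/- and 0.261, 0.415 and 0.329 in wild type. Every Mov10-/- library had less class II per class I than every wild type library (two-sided exact permutation p = 0.1, the smallest possible, adjusted p = 0.3 over 9 ratios).

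Over the 6 libraries, the class II genes followed each other closely. Pearson's r of log2 CPM lay between 0.92 and 0.97 for the 6 pairs of class II genes, and between -0.69 and 0.91 (median 0.33) for the 15 pairs of class I genes. H2-K1 ran with the class II genes (r from 0.76 to 0.90) and against H2-D1 (r = -0.48), while B2m ran with Tap2 (r = 0.91). These values describe 6 libraries that share genotype and depth differences, and Mov10-/- replicate 3 was low in the class II genes, H2-K1 and Nlrc5 together. The protein-coding genes at 10 CPM or more most like the class I mean profile were Adk, Eri1, Fut10, Bcl6 and Smarca5 (r from 0.97 to 0.98), among 116 of 12325 genes with r over 0.9. Those most like the class II profile were Zfp87, Zfp974, Ogfod1, Zfp719 and Zc2hc1a (r from 0.97 to 0.98), among 87 genes over 0.9.

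Macrophages are among the cells that carry class II. Their summed markers (12 genes) were 414 to 585 CPM in Mov10-/- and 307 to 511 CPM in wild type, and the groups overlapped. The median log2 fold change was 0.40, and it was 0.22 without Mov10-/- replicate 2, 0.65 without wild type replicate 1 and 0.26 without wild type replicate 3. Adgre1, the F4/80 antigen of macrophages, had a log2 fold change of 0.38 (edgeR quasi-likelihood adjusted p = 0.605), with overlapping groups. The ratio of class II genes to macrophage markers was 0.114, 0.0447 and 0.0743 in Mov10-/- and 0.110, 0.259 and 0.211 in wild type, with 1 Mov10-/- library inside the wild type range (two-sided exact permutation p = 0.2).

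Summed pan-leukocyte markers (6 genes) were 89.6 to 170 CPM in Mov10-/- and 83.4 to 125 CPM in wild type. Ptprc, which codes for CD45, had a log2 fold change of 0.62 (edgeR quasi-likelihood adjusted p = 0.480). The ratio of class II genes to Ptprc was 4.92, 2.81 and 4.81 in Mov10-/- and 6.52, 15.7 and 16.5 in wild type. The groups did not overlap (two-sided exact permutation p = 0.1, adjusted p = 0.3 over 9 ratios). The ratio of class I genes to macrophage markers overlapped between the groups (two-sided exact permutation p = 0.6).

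Markers of the other class II cells were present in part. Of 8 dendritic cell markers 5 were tested and 0 had an unadjusted p below 0.05 by edgeR's quasi-likelihood test, with a median log2 fold change of 0.56, which was 0.14 without wild type replicate 2 and 0.15 without wild type replicate 3. Their sum was 65.0 to 68.2 CPM in Mov10-/- and 58.4 to 75.0 CPM in wild type. Most of it came from Zbtb46 (37.8 to 51.4 CPM over the 6 libraries) and Flt3 (11.8 to 19.9 CPM), while Clec9a, Cd209a and Siglech were under 0.5 CPM in every library. Of 12 lymphocyte markers 5 were tested, with a median log2 fold change of -0.22. The B cell receptor genes Cd79a and Cd79b and the B cell marker Ms4a1 stayed under 1 CPM in every library. Cd3d (log2 fold change -2.17, unadjusted p = 0.00827) and Pax5 (-2.19, unadjusted p = 0.0334) were lower at the unadjusted threshold, with Pax5 at 28.1 CPM in wild type replicate 2 and at 4.71 or less in the other libraries. The part of these cells in the class II values was not tested.

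**Figure D4:**
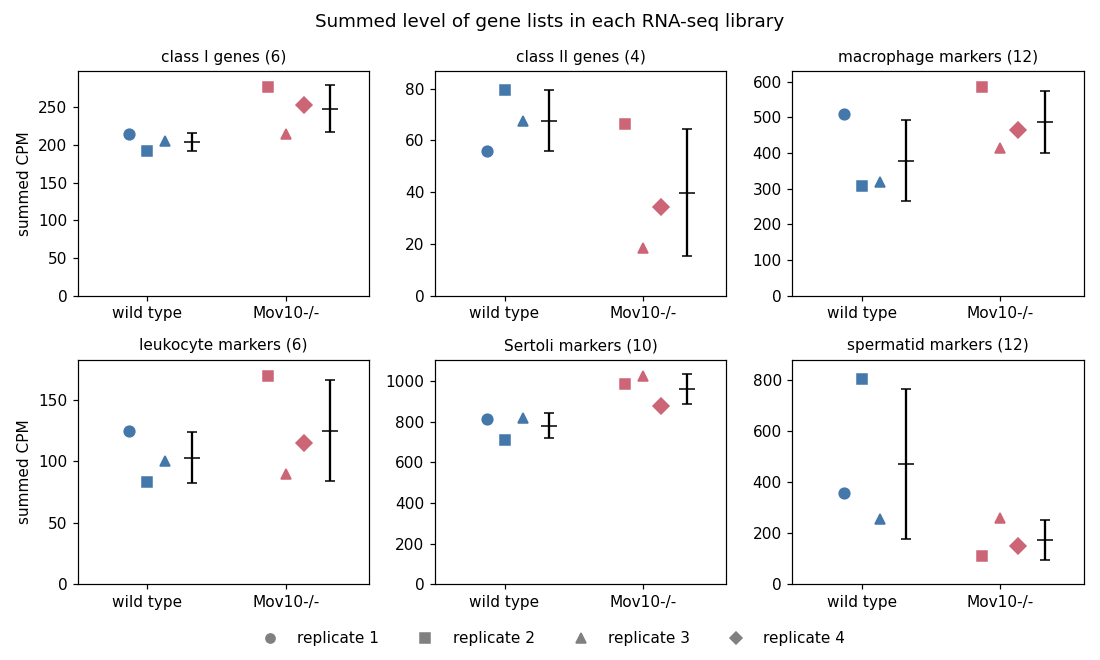
Summed CPM (y axis, from 0) of the class I genes, the class II genes and 4 marker lists in each library, coloured and shaped as in the plot of the 10 genes, with mean ± SD in black (n = 3). The class II sum reaches 18.5 CPM in Mov10-/- replicate 3. Macrophage markers (414 CPM) and leukocyte markers (89.6 CPM) are also lowest there among the Mov10-/- libraries. Both lie inside the wild type range, which for macrophage markers is 511, 307 and 319 CPM in replicates 1, 2 and 3.

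Genes that cut, trim and load class I peptides had mostly small positive differences. Of 11 tested, 10 had a positive log2 fold change (median 0.23). At an unadjusted p below 0.05, 1 was higher (9.09% beside 5.58% of all genes). In 3 every Mov10-/- library lay above wild type (27.3% beside 11.9% of all genes). Tapbp, the tapasin that bridges Tap1-Tap2 and the heavy chain, was at 143 to 155 CPM in Mov10-/- and 119 to 134 CPM in wild type (log2 fold change 0.25, unadjusted p = 0.0263, edgeR quasi-likelihood adjusted p = 0.224). The immunoproteasome subunits had log2 fold changes of 0.57 (Psmb8), 0.75 (Psmb9) and 0.35 (Psmb10), and Erap1, which trims peptides in the endoplasmic reticulum, of 0.34, and in none of the 4 was the edgeR quasi-likelihood adjusted p under 0.42. The constitutive subunits that they replace, Psmb5, Psmb6 and Psmb7, had a median log2 fold change of -0.02, and the ratio of each immune subunit to its counterpart overlapped between the groups (two-sided exact permutation p = 0.3, 0.2 and 0.2).

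Of 22 other class I genes, 20 were in the files and 14 were tested. At an unadjusted p below 0.05, 2 were higher (14.3% beside 5.58% of all genes) and 0 lower (beside 11.9%). The median log2 fold change was 0.14. It ranged from -0.09 to 0.39 as single libraries were left out, and was below 0 without Mov10-/- replicate 2 or wild type replicate 2. H2-T10, annotated as a polymorphic pseudogene, had 45, 27 and 34 reads in Mov10-/- replicates 2, 3 and 4 and 9, 6 and 8 reads in wild type replicates 1, 2 and 3 (log2 fold change 2.46, SE 0.34, edgeR quasi-likelihood adjusted p = 0.134). Its neighbour BC023719, an antisense gene that overlaps it and was chosen after its values were seen, had 72, 55 and 60 reads in Mov10-/- and 0 in each wild type library. The strand setting of the counting was not given in the sources used here, so reads of this pair cannot be told apart with certainty. The H2 haplotypes were not given either, and their part in these counts was not tested.

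H2-Q4 was the other class I gene at that threshold (log2 fold change 0.64, unadjusted p = 0.0391, every Mov10-/- library above wild type). The nonclassical genes H2-T23 (0.09), H2-M3 (0.63) and H2-Q7 (-0.30) had overlapping groups, with edgeR quasi-likelihood adjusted p-values of 0.945, 0.478 and 0.617. H2-M5 was lower in every Mov10-/- library (log2 fold change -0.88, edgeR quasi-likelihood adjusted p = 0.380). These genes are close relatives, so counts of single genes are uncertain. The sharing of reads among them was not measured.

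Among 12 other class II genes 11 were in the files and 6 were tested. H2-DMb1, a chain of the peptide exchange factor H2-DM, was at 6.70, 2.26 and 7.65 CPM in Mov10-/- and at 10.2, 13.1 and 12.7 CPM in wild type, without overlap (log2 fold change -1.09, SE 0.43, unadjusted p = 0.0349, edgeR quasi-likelihood adjusted p = 0.249). Its partner chain H2-DMa had a log2 fold change of -0.27 with overlapping groups. The proteases Ctss and Lgmn, which cut the invariant chain and antigens in the endosome, had positive log2 fold changes of 0.22 and 0.28. The list as a whole had a median of -0.02, which ranged from -0.23 to 0.15 as single libraries were left out.

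Regulators of both pathways overlapped between the groups or missed the threshold. Ciita, the class II transactivator, was at 0.494 to 1.44 CPM in Mov10-/- and 0.967 to 1.37 CPM in wild type (log2 fold change -0.16, 95% interval -1.28 to 0.95, edgeR quasi-likelihood adjusted p = 0.879). The factors that bind the X and Y boxes had 6 of 7 members tested, of which 0 had an unadjusted p below 0.05 by edgeR's quasi-likelihood test, and a median log2 fold change of 0.10 (0.20 without Mov10-/- replicate 2). Of 12 genes of interferon gamma signalling 11 were tested, 0 with an unadjusted p below 0.05 by the same test (median 0.24, but 0.099 without Mov10-/- replicate 2 and 0.125 without wild type replicate 2), and Ifng itself had no read in any of the 6 libraries. Irf1, a transcription factor induced by interferon, had a log2 fold change of 0.29 (edgeR quasi-likelihood adjusted p = 0.569). Of 6 co-stimulatory genes 5 were tested, 0 at that threshold, with a median of 0.36, which was 0.074 without Mov10-/- replicate 2 and 0.19 without wild type replicate 2.

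The Sertoli, endothelial, peritubular and Leydig cell lists had positive medians when every library was used. At an unadjusted p below 0.05, 4 of 9 Sertoli cell markers tested were higher (median log2 fold change 0.31), beside 5.58% of all genes. So were 1 of 8 endothelial markers (median 0.22) and 1 of 6 peritubular markers (median 0.33). A single gene in lists this short lies near the share of all genes. Of the peritubular markers 5 lay above wild type in every Mov10-/- library, beside 11.9% of all genes. Summed endothelial markers were 178 to 206 CPM in Mov10-/- and 153 to 167 CPM in wild type. The Leydig cell median was 0.17 and ranged from -0.05 to 0.38 as single libraries were left out, below 0 without Mov10-/- replicate 2 or wild type replicate 3. The spermatogonia median was 0.25 (0.15 without wild type replicate 2), and the spermatocyte median was 0.06 (-0.03 without Mov10-/- replicate 3). Of 11 spermatid markers 10 were lower at that threshold, beside 11.9% of all genes (median -2.09, and -1.37 without wild type replicate 2). These shifts stood beside the higher H2-D1 and B2m values, and their part in them was not tested.

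Of the 10 genes, 7 lie in the H2 complex on chromosome 17, and B2m, Nlrc5 and Cd74 lie elsewhere. Between the first and the last H2 gene (mm10 chromosome 17, 33974659 to 37483552, H2-K2 to H2-M2) 130 genes were tested. At an unadjusted p below 0.05, 17 were higher (13.1% beside 5.58% of all genes) and 11 lower (8.46% beside 11.9%). Every Mov10-/- library lay above wild type for 24 (18.5% beside 11.9% of all genes) and below for 11 (8.46% beside 14.1%). Without the 7 genes, 15 of 123 were higher (12.2%) and 10 lower (8.13%). For 23 of these (18.7%) every Mov10-/- library lay above wild type, and for 10 (8.13%) below. In the rest of chromosome 17, 68 of 835 were higher (8.14%) and 86 lower (10.3%). There, 117 (14.01%) lay above wild type in every Mov10-/- library and 103 (12.3%) below. The interval's median log2 fold change was 0.05, close to the 0.03 of all genes, and both directions occurred among close neighbours, with Tap1 and Tap2 higher on average and H2-Ab1, H2-Aa and H2-Eb1 lower on average within a short stretch.

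**Figure D5:**
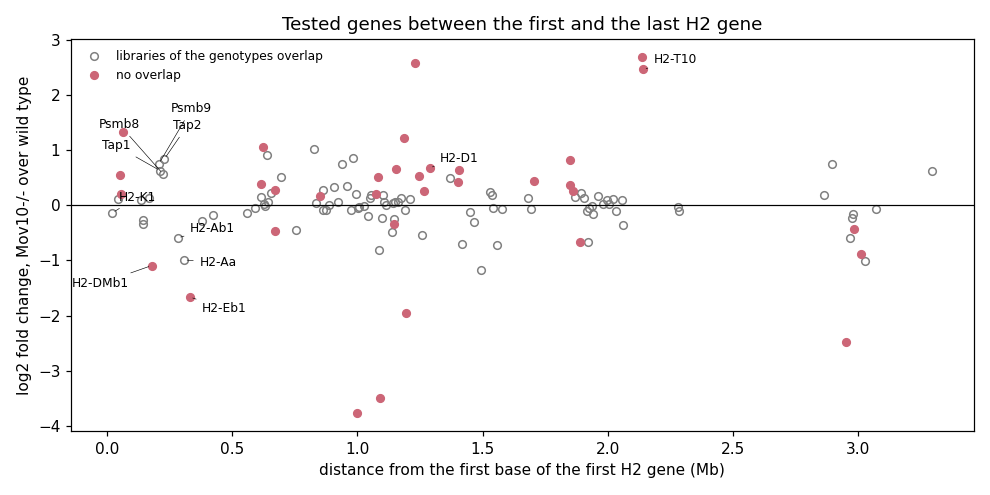
Log2 fold change of Mov10-/- over wild type (y axis) for the tested genes between the first and the last H2 gene, by distance in megabases from the first base of the first (x axis). Filled points are genes whose libraries did not overlap between genotypes and open points those that did. BC023719 is not drawn because its wild type reads were 0, and H2-T10 at 2.46 lies beside its place.

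MOV10 CLIP-seq held almost no reads on the 10 genes. In these libraries 99.5% to 99.6% of reads did not align. The 3404 to 4934 reads on genes made up 0.0260% to 0.0521% of a library, and 1 of the 15710 in all, on H2-Aa in replicate 1, fell on a member. A count of 0 in a library allows up to 3 reads, so binding at the level of these RNAs' abundance was not detectable at this depth. The counts of replicates 1, 2 and 3 were closer to one another than sampling noise allows (chi-square over degrees of freedom 0.219 to 0.237, beside 1.63 to 1.93 against replicate 5) and were counted as 1 sample. With these 3 averaged and replicate 5 added there were 8526 reads, and by their share of wild type RNA-seq counts 2.31 of them would have fallen on the 10 genes. Tapbp had 4, 2, 2 and 1 reads in replicates 1, 2, 3 and 5, Erap1 1, 1, 1 and 0, and H2-T24 1 in each.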

How the data were processed

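RNA was measured by RNA-seq in 6 testis libraries and by MOV10 CLIP-seq in 4. The deposited values are whole read counts per Ensembl gene; the authors aligned reads to mm10 with STAR and counted them with HTSeq, and edgeR is also named in the submitters' processing notes. Versions of these tools are not given in the sources used here. Rows that name no gene (not aligned, not unique, no feature, ambiguous) were left out, 52.8% to 71.7% of the reads of an RNA-seq library. Gene positions came from GENCODE M21, which matched 55240 of 55421 genes. Counts were fitted across all genes with edgeR 4.0.16 (R 4.3.3): TMM scaling, genotype as the only term, quasi-likelihood test, Benjamini-Hochberg adjustment over 20240 genes with over 1 CPM before TMM scaling in at least 3 libraries. Within-library ratios were compared with scipy 1.17.1 exact permutation tests. Each RNA-seq library is 1 pair of testes, and p-values measure the spread between these 3 per genotype. The fit was tested on simulated data. DESeq2 1.42.0, limma 3.58.1 voom, other scalings, other filters, a replicate block and leaving out each library were alternatives. The 10 genes, the gene lists and the tests were chosen with earlier results of these data known. Named genes were the 10, up to 4 of smallest unadjusted p per list and a fixed set of pathway genes, of which some are not reported here. Sequences are from RefSeq, GRCm38.p6.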

Additional observations from a re-analysis of the deposited data

Results flagged for a closer look

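The H2-Aa read count in CLIP-seq stood apart in 1 library: replicate 1 had 1 read and replicates 2, 3 and 5 had 0. The gap of that library to the others took up the whole range of the group, which is what singled it out. Chance would single out about 1 in 20 groups of continuous values by this measure. With counts, 1 read in 1 library and 0 in the others is always singled out, so that rate does not apply here. Replicates 1, 2 and 3 were nearly identical libraries, and a single read lies under the limit of 3 that a count of 0 allows.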

How the results depend on the processing

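No alternative called any of the 10 genes, and the median of all genes stayed between -0.04 and 0.04. Over all genes, counts called higher and lower were 70 and 1031 by edgeR's exact test, 83 and 1104 by its likelihood ratio test, 51 and 988 by DESeq2, 3 and 3 with library totals only, 5 and 5 with no filter, and 1 higher by limma voom, while leaving out 1 library gave 0 higher and 0 to 1 lower. With the replicate block these counts were 36 and 148. The labels do not say whether the numbers pair the samples. Same-numbered libraries had r = -0.47 and -0.35, and the others r from -0.26 to 0.46. With only 2 numbers shared, these values cannot show whether samples were paired. The block gave a class II median of -1.24 and 1 member higher at an unadjusted p below 0.05. As single libraries were left out, the class I median ranged from 0.41 to 0.53 and the class II median from -1.65 to -0.43, members higher at an unadjusted p below 0.05 numbered 1 to 4, and members lower 0 to 4. The higher count was 1 without Mov10-/- replicate 2 or 4 or wild type replicate 2 or 3, and the lower count was 4 without Mov10-/- replicate 2 and 0 without Mov10-/- replicate 4. H2-K1 ranged from -0.29 to 0.049 and reversed to 0.049 without Mov10-/- replicate 3. Mov10 kept its direction, with an edgeR quasi-likelihood adjusted p of 0.107 without Mov10-/- replicate 3 and 0.143 without replicate 4. The 5 reads of H2-Aa and of H2-Eb1 in the shallowest library limit their precision. The causes were not tested.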
